A study of Rattus with 4 samples.

Results

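The genes described here encode proteins that bind, bundle or move actin filaments in muscle and nonmuscle cells: the tropomyosins Tpm1, Tpm2, Tpm3 and Tpm4, the filamins Flna and Flnc, the nonmuscle myosin heavy chains Myh9 and Myh10, and the actinin Actn4. Members were chosen by name, with earlier results of these data known. Every peak assigned to any of the 9 genes in the peak lists of the RBM25 immunoprecipitates (IP) was taken. This gave 146 of the 10804 peaks in both lists, 34 of 2696 in replicate 1 and 112 of 8108 in replicate 2. Members therefore held 1.26% of replicate 1 peaks (95% Wilson interval, 0.904 to 1.76) and 1.38% of replicate 2 peaks (1.15 to 1.66). Intervals cover counting error only.

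RBM25 is an RNA-binding protein that associates with the U1 small nuclear ribonucleoprotein and influences splice site choice. Tropomyosins are coiled-coil proteins that lie along actin filaments, and isoforms of Tpm1 and Tpm3 in particular arise through alternative promoters and alternative exons. Filamins cross-link actin filaments into networks, nonmuscle myosins pull on them, and alpha-actinins bundle them. In muscle precursors these proteins build the contractile and adhesive cytoskeleton that precedes mature sarcomeres.

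H9C2, a myoblast line from embryonic rat heart, was the only cell source, and the series holds 2 RBM25 IP samples and 2 input samples. All samples came from cells irradiated with 400 mJ/cm2 of ultraviolet light, and their RNA was digested with micrococcal nuclease. The labels give no genotype, no other treatment and no separate cultures, and they do not say whether RBM25 was overexpressed in these cells. Each IP sample had its own peak list, the inputs were not analysed here, and library depth is unknown. Replicate 2 had 3.01 times as many peaks as replicate 1. Tags are the authors' signal per 50-nt bin, not scaled for depth, and the lowest tag value of a called peak was 19 in replicate 1 and 20 in replicate 2. Each list is a single sample, so a tag value has no replicate error of its own, and a bin that was not called has no value. Of 8 myoblast markers, Tnnt2 had peaks in both lists and Vim in replicate 2 alone. Des, Myog, Myod1, Myf5, Nkx2-5 and Gata4 had none. Over the protein-coding genes of the RefSeq name table, 7.61% had a peak in either list. A peak is not a level of expression.

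The first question was which of these transcripts had RBM25 peaks. Of the 9 genes, 7 had peaks in each list: Flna, Flnc, Myh9, Myh10, Tpm1, Tpm3 and Actn4. Tpm2 and Tpm4 had no peak in either list. Of the 23154 protein-coding genes of the RefSeq name table, whether expressed in these cells or not, 767 had peaks in both lists (3.31%), and in 606 a peak was shared by position (2.62%). Among all 1914 genes with a peak in either list, 827 had a peak in both (43.2%), which is 89.7% of the 922 genes with a replicate 1 peak. Peaks are called shared here when they overlapped on the same strand in both lists, and 6 members held a shared peak, the exception among the 7 being Actn4. Over all genes with a peak, 34.1% held a shared peak. Longer genes and genes with more RNA can hold more peaks, and neither length nor expression was used here. The members were also chosen with earlier results of these data known, and their counts may depend on that choice. These shares are therefore set side by side and not tested.

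Flna carried the most member peaks, 6 in replicate 1 and 41 in replicate 2. Myh10 followed with 10 and 22, Myh9 had 5 and 14, and Tpm1 had 3 and 12. Flnc had 5 and 9 peaks, Tpm3 had 3 and 8, and Actn4 had 2 and 6. By number of peaks, Flna ranked 72 of 922 genes in replicate 1 and 2 of 1819 in replicate 2, while Myh10 ranked 28 and 26. The order of the members thus differed between the lists, with Myh10 first in replicate 1 and Flna first in replicate 2. Flna had 6.83 times as many peaks in replicate 2 as in replicate 1, and for the other members with peaks this ratio lay between 1.8 (Flnc) and 4 (Tpm1).

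**Figure D1:**
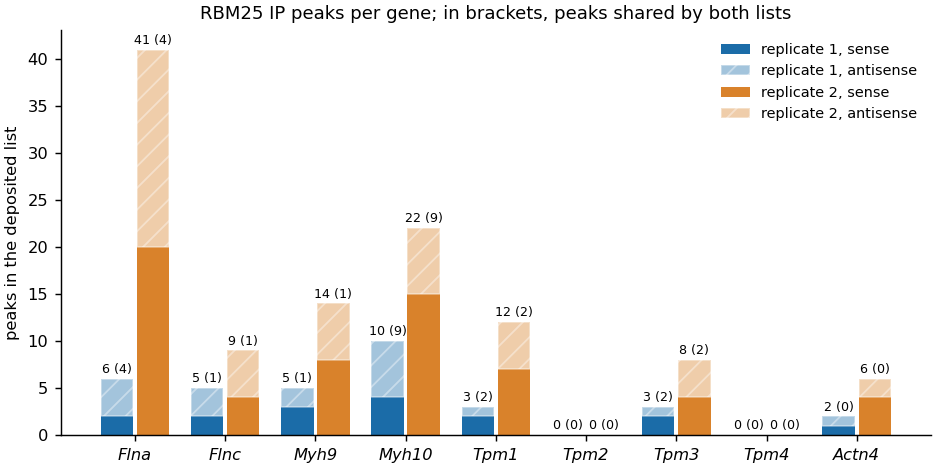
Number of peaks per gene (vertical axis) in the replicate 1 and replicate 2 lists, with sense peaks solid and antisense peaks pale and hatched; above each bar stand the number of peaks and, in brackets, the number shared with the other list. Flna reached 41 peaks in replicate 2 with 4 shared, Myh10 shared 9 of its 10 replicate 1 peaks, and Tpm2 and Tpm4 had none.

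Of the 34 member peaks in replicate 1, 19 were shared (55.9%, 39.5 to 71.1), beside 61.0% of all replicate 1 peaks. These 19 made up 17.0% of the member peaks of replicate 2 (11.1 to 25), beside 20.3% of the whole list. Recurrence differed among members: 9 of 10 replicate 1 peaks in Myh10 were shared, 4 of 6 in Flna, 2 of 3 in Tpm1, 2 of 3 in Tpm3, 1 of 5 in Flnc, 1 of 5 in Myh9 and 0 of 2 in Actn4. The 15 replicate 1 member peaks that were not shared lay between 100 and 27850 nt from the nearest replicate 2 peak of the same gene and strand, with a median gap of 1900 nt.

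Tags in the 19 shared pairs were higher in replicate 2 for 13 pairs and lower for 6, with a median ratio of replicate 2 over replicate 1 of 1.12 and a range of 0.583 to 2.25. The median over all shared pairs of the lists was 1.24. At the low end was an antisense Flna peak with 36 tags in replicate 1 and 21 tags in replicate 2, and at the high end a Myh10 sense peak with 20 and 45.

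**Figure D2:**
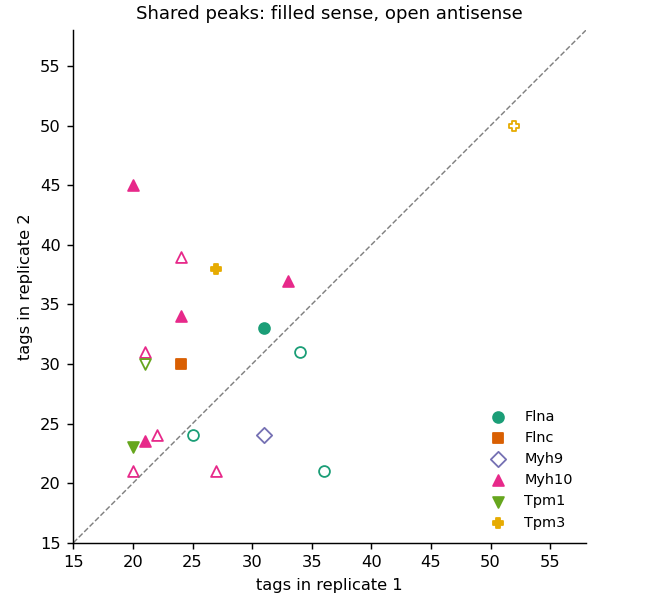
Tags of the 19 shared member peaks in replicate 1 (horizontal) and replicate 2 (vertical), with symbols by gene, filled for sense and open for antisense; the dashed line marks equal tags. Most points lie above the line, 8 of 9 Myh10 pairs among them, while 3 of 4 Flna pairs lie below it.

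Myh10 encodes nonmuscle myosin heavy chain IIB. Its peaks lay within 19.9 kb on chromosome 10, between 53495150 and 53515000 (mRatBN7.2, coordinates as in the authors' lists), with the gene on the plus strand. The shared Myh10 peak with the most tags in replicate 1, at 53495300 to 53495350, reached 33 tags in replicate 1 and 37 tags in replicate 2; coding sequence took a fraction of 0.88 of it and intron 0.12. Antisense to it, the same bin held 21 tags in replicate 1 and 31 tags in replicate 2. A second bin called on both strands in both lists, at 53502000 to 53502050, held 24 (replicate 1) and 34 (replicate 2) sense tags, with 22 and 24 antisense tags. Both bins cross an exon-intron boundary, with the coding fraction of the second at 0.48.

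The remaining shared Myh10 peaks were 2 sense and 3 antisense. At 53512400 to 53512450 the sense peak measured 20 tags in replicate 1 and 45 tags in replicate 2. At 53510450 it measured 21 tags over 51 nt in replicate 1 and 23.5 tags over 101 nt in replicate 2. Antisense peaks at 53495150, 53495400 and 53500150 had 20, 27 and 24 tags in the first list and 21, 21 and 39 in the second. All 4 sense peaks of Myh10 in replicate 1 recurred, and all 4 crossed a boundary. The tallest Myh10 peak, sense at 53514950 to 53515000 with 49 tags, was called in replicate 2 alone.

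The downstream stretch of Myh10 overlaps another gene on the opposite strand. Ndel1, whose protein works with dynein in nuclear positioning, had 8 peaks in replicate 2 and 0 in replicate 1, and all 8 lay inside the span of the Myh10 peaks and wholly in the annotated 3' UTR of Ndel1. Of these, 7 occupied the same bins as a Myh10 sense peak. At 53514950 the Myh10 peak had 49 tags and the Ndel1 peak 52, at 53511700 they had 38 and 36, and at 53512400 they had 45 and 33. In the lists these minus-strand peaks carry the name of Ndel1, so they are counted as sense peaks of Ndel1 and not as antisense peaks of Myh10. With them included, 11 of the 15 Myh10 sense peaks in replicate 2 had an opposite-strand peak in the same bins, against 4 without them. The other 6 members with peaks had no peak of another gene inside their span.

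Myh9 encodes nonmuscle myosin heavy chain IIA, and its peaks were spread over 79.6 kb of chromosome 7, with the gene on the minus strand. Its only shared peak was antisense, at 109424200, with 31 tags over 101 nt in replicate 1 and 24 tags over 51 nt in replicate 2. Opposite to it replicate 1 had a sense peak of 26 tags, with a fraction of 0.72 in the 5' UTR and 0.28 in intron, and replicate 2 had no sense peak there. The strongest Myh9 peak, sense at 109356950 to 109357000 with 70 tags and a coding fraction of 0.84, was in replicate 2 alone. At 109391300 to 109391350 the lists called opposite strands of the same bin, sense with 21 tags in replicate 1 and antisense with 35 in replicate 2. Replicate 2 also had 2 sense peaks that touched the 3' UTR, with 32 tags at 109344750 and 32.5 at 109345000.

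Flna encodes the widely expressed filamin A, and its peaks covered 19.6 kb of chromosome X, from 152008000 to 152027650, with the gene on the minus strand. In replicate 2 its 20 sense peaks were 15 across an exon-intron boundary, 2 wholly coding, 2 wholly intronic and 1 in the 3' UTR, and 21 further peaks were antisense. The tallest pair in that list, at 152012000 to 152012050, had 93 sense and 96 antisense tags. Next to it, at 152011850, the antisense peak had 77 tags over 51 nt and the sense peak a mean of 45 over 101 nt. Replicate 1 called neither strand in these bins; its nearest peaks were a sense peak of 19 tags at 152012250 and an antisense peak of 29 tags at 152011350.

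The 4 shared Flna peaks stood elsewhere in the gene and were of moderate height. At 152013550 to 152013600 sense tags were 31 in replicate 1 and 33 in replicate 2, with 34 and 31 antisense tags. This was the single Flna bin called on both strands in both lists, with a coding fraction of 0.9. Antisense peaks at 152014750 had 25 and 24 tags, and at 152021000 had 36 and 21. Thus the replicate 2 maximum of Flna was not among its recurring positions: of its 8 replicate 2 peaks over 40 tags, 0 were shared.

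Flnc encodes filamin C, the filamin of striated muscle, and lies on the plus strand of chromosome 4. Its shared peak was sense and wholly coding, at 58055650 to 58055700, with 24 tags in replicate 1 and 30 tags in replicate 2. The tallest Flnc peak, antisense at 58043750 to 58043800, had 63 tags in replicate 1, the highest tag value of any member in that list, and the nearest replicate 2 peak on that strand was 2450 nt away. In replicate 2 the highest value was 31 tags, antisense at 58061000, opposite a sense peak of 27. A replicate 2 sense peak of 23 tags at 58034250 lay in the 5' UTR.

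Tpm3 encodes a tropomyosin of slow muscle and of nonmuscle cells, and lies on the plus strand of chromosome 2. Its bin at 175533850 to 175533900 was called on both strands in both lists. Antisense tags there were 52 in replicate 1 and 50 in replicate 2, with 27 and 38 sense tags. Replicate 2 added 3 upstream bins, each called on both strands, and its Tpm3 peaks together spanned 2300 nt. These had 52 sense and 41 antisense tags at 175531600, 68 and 66 at 175532300, and 72 and 82 at 175533650. All 4 Tpm3 sense peaks of replicate 2 crossed an exon-intron boundary, with coding fractions between 0.42 and 0.64. The median of Tpm3 peaks in replicate 2 was 59 tags, above the medians of the other members, which lay between 24 (Flnc) and 28 (Flna). These 8 peaks are 4 bins each called on both strands, so they are not independent. For replicate 1 the median of the 3 Tpm3 peaks was 27 tags, within the range of the other members, from 21 (Tpm1) to 30 (Flna). In replicate 1 the other Tpm3 peak was sense, in the 5' UTR at 175523700, with 22 tags.

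Tpm1, whose product is the main tropomyosin of heart muscle, lies on the minus strand of chromosome 8. A bin at 67645450 to 67645500 was called on both strands in both lists, with 20 (replicate 1) and 23 (replicate 2) sense tags and 21 and 30 antisense tags. The coding fraction there was 0.12 and the intronic fraction 0.88. Replicate 2 had taller peaks at 67644150, with 62 sense and 74 antisense tags, and at 67661100, with 66 sense tags and no antisense peak; replicate 1 called neither. The third replicate 1 peak of Tpm1 was wholly intronic, at 67658050 with 21 tags, and lay 1350 nt from the nearest replicate 2 peak on its strand.

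Actn4 encodes alpha-actinin-4, a nonmuscle bundler of actin, on the minus strand of chromosome 1. Replicate 1 had a sense peak of 25 tags at 84194300 and an antisense peak of 26 tags at 84200700. In replicate 2 the highest Actn4 values were 33 sense and 31 antisense tags in the same bin at 84188100. No Actn4 bin was called in both lists, and the gaps between lists were 6150 nt on the sense strand and 12550 nt on the antisense strand.

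**Figure D3:**
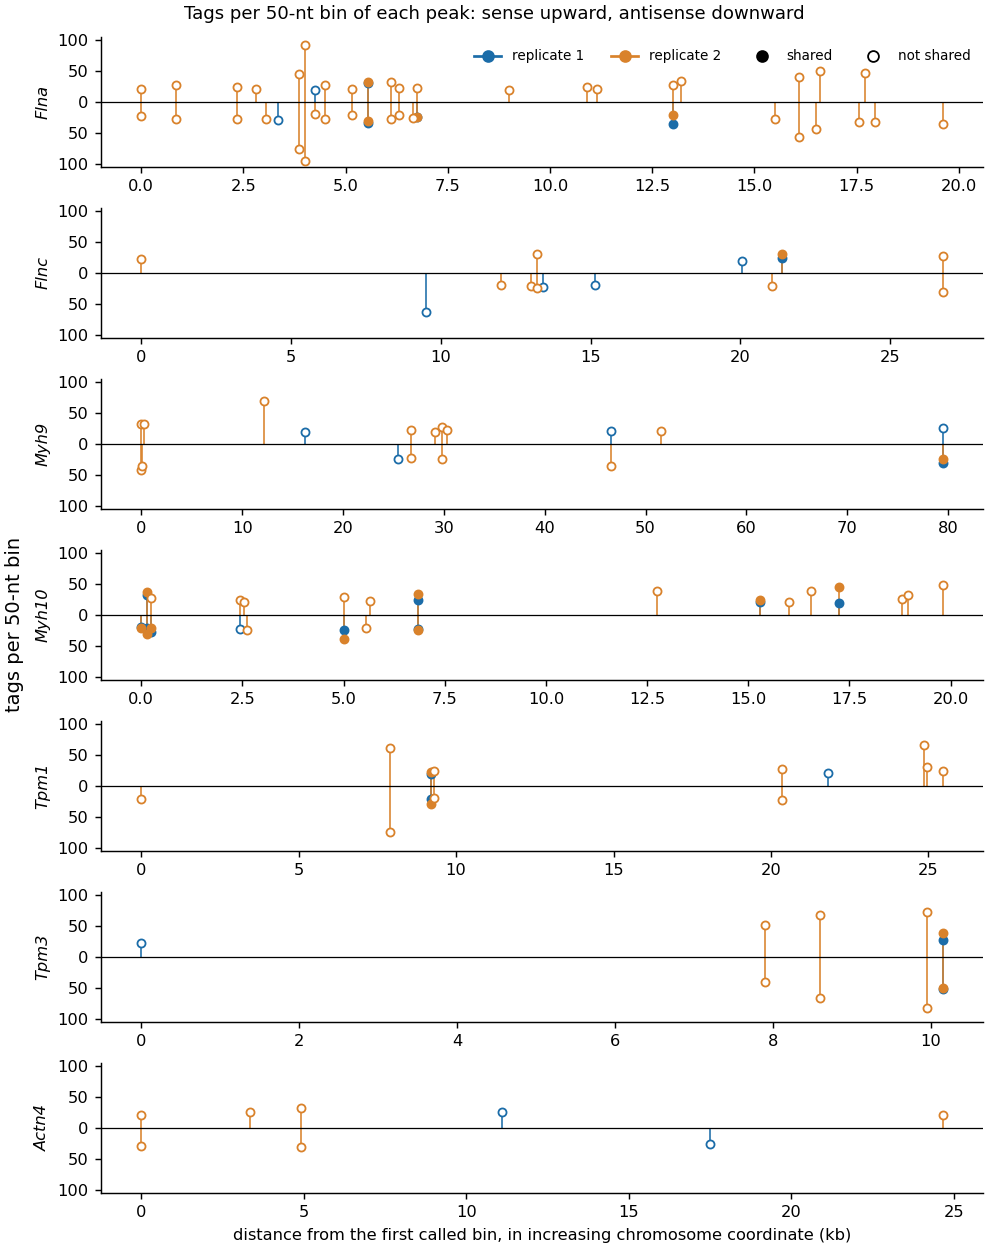
Tags of every member peak (vertical axis, sense upward and antisense downward) against distance in kb from the first called bin of its gene, in increasing chromosome coordinate, with 1 panel per gene, replicate 1 in blue and replicate 2 in orange, and filled circles for shared peaks. Tall stems of replicate 2, such as 96 tags in Flna and 82 in Tpm3, are open circles, while the shared Myh10 peaks reach no more than 45 tags.

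The next question was how height related to recurrence, using tag classes set after the values were seen. In replicate 2, 2 of the 22 member peaks over 40 tags were shared (9.09%), beside 32.0% of all replicate 2 peaks of that height. The 22 peaks came from Flna (8), Tpm3 (7), Tpm1 (3), Myh10 (2) and Myh9 (2), and several are sense and antisense peaks of the same bin, so they are not independent. Between 25 and 40 tags 20.5% of member peaks were shared, beside 26.5% of all, and at 25 tags or fewer 17.4% were shared, beside 11.0% of all. In replicate 1 only 2 member peaks exceeded 40 tags, the Flnc antisense peak and the Tpm3 antisense peak, and the Tpm3 peak recurred. Over all replicate 1 peaks of that height, 56.7% were shared. Between 25 and 40 tags, 7 of 10 replicate 1 member peaks were shared, beside 70.9% of all. At 25 tags or fewer it was 11 of 22, beside 56.4% of all. The low share of tall member peaks thus rests on replicate 2, and 2 peaks in replicate 1 are too few to show it or its absence.

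Where the peaks lay relative to exons was described from the authors' annotation fractions. Of 16 sense member peaks in replicate 1, 11 held both exon and intron sequence (68.8%, 44.4 to 85.8), beside 67.8% of all sense peaks. In replicate 2 it was 44 of 62 (71.0%, 58.7 to 80.8), beside 71.2%. Both list values lay inside the members' intervals. In these boundary bins the exonic fraction had a median of 0.62 in replicate 1 and 0.60 in replicate 2, beside 0.58 and 0.62 over all boundary peaks. Among members it ranged from 0.08 to 0.98 in replicate 2. Peaks wholly in coding sequence numbered 2 and 9, wholly intronic peaks 2 and 3, and sense peaks that touched a UTR 2 and 6 (12.5% and 9.68%, beside 11.9% and 9.26% of all sense peaks). Shares of wholly coding and wholly intronic peaks over all sense peaks are not given here. The intronic peaks were in Tpm1 and Myh9 in replicate 1, and in Flna and Tpm1 in replicate 2.

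Antisense peaks made up 18 of 34 member peaks in replicate 1 (52.9%, 36.7 to 68.5), beside 51.6% of all peaks. In replicate 2 they made up 50 of 112 (44.6%, 35.8 to 53.9), beside 49.3%. Both list totals include intergenic peaks, which are neither sense nor antisense. The antisense share among peaks assigned to genes is therefore higher than these list values. In replicate 1, 11 of the 18 antisense member peaks were shared (61.1%, 38.6 to 79.7), beside 60.0% in the whole list. Of the sense member peaks, 8 of 16 were shared (50%, 28 to 72), beside 64.6%. From the replicate 2 side, 11 of 50 antisense member peaks were shared (22%), beside 20.9%, and 8 of 62 sense member peaks (12.9%, 6.69 to 23.4), beside 19.9%.

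Some sense peaks of the members had an antisense peak of the same gene in the same bins, in a smaller share than over all sense peaks. This held for 6 of 16 in replicate 1 (37.5%, 18.5 to 61.4), beside 47.9% of all sense peaks. In replicate 2 it held for 32 of 62 (51.6%, 39.4 to 63.6), beside 68.6%, which lay above the members' interval. The interval takes peaks as independent, which peaks of the same gene are not, so this is not a test. Counting opposite-strand peaks of any gene, which adds the Ndel1 peaks, gave 39 of 62 in replicate 2 (62.9%, 50.5 to 73.8), beside 73.5%, and again 6 of 16 in replicate 1, beside 50.5%. Both list values of this wider count lay inside the members' intervals. The median antisense share of a pair's tags was 51.8% in replicate 1 (6 pairs) and 49.7% in replicate 2 (32 pairs), beside 51.2% and 51.1% over all genes. Across the 32 member pairs of replicate 2 Spearman's rho between sense and antisense tags was 0.79, and across the 2676 pairs of all genes it was 0.75. In replicate 1 it was 0.23 across the 6 member pairs and 0.52 across the 575 pairs of all genes. Partners share a library and a position, and a pair counts only where both strands were called, so these values are descriptions.

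**Figure D4:**
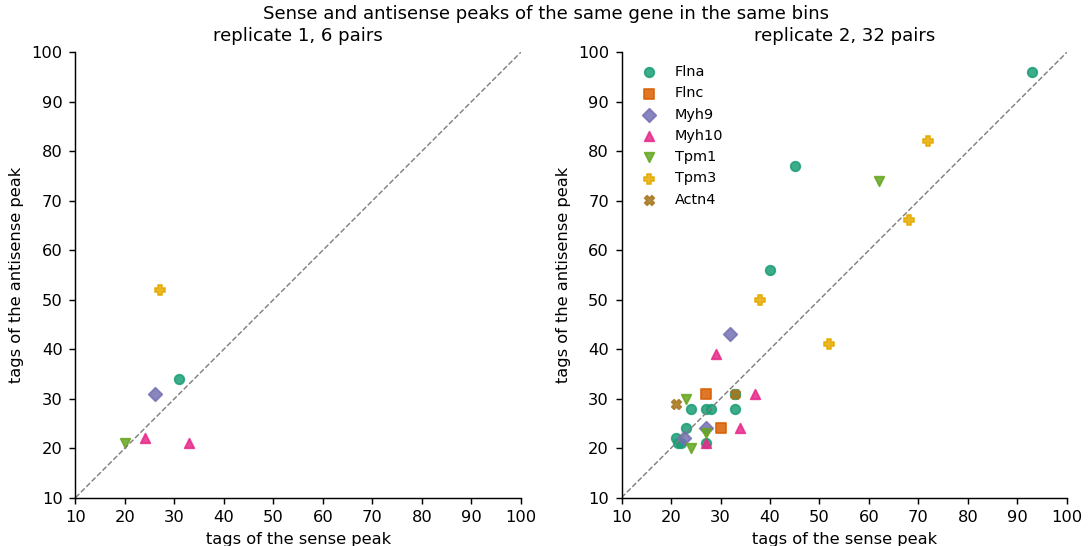
Tags of the sense peak (horizontal) and of the antisense peak of the same gene in the same bins (vertical), for 6 pairs in replicate 1 and 32 pairs in replicate 2, with symbols by gene and a dashed line at equal tags. In replicate 2 the pairs follow the line up to 93 sense and 96 antisense tags in Flna. An Flna pair with 45 sense and 77 antisense tags stands farthest above it, and its sense value is a mean over a longer peak.

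Member peaks covered 107 bins in all. Of these, 5 were called on both strands in both lists (4.67%, 2.01 to 10.5), beside 6.18% of the 6509 bins with a peak in any gene. Myh10 had 2 such bins, and Flna, Tpm1 and Tpm3 had 1 each. A further 5 bins were called in 3 of the 4 combinations of strand and list, 2 in Flna, 2 in Myh10 and 1 in Myh9. These bin counts use only peaks that carry the name of the same gene. The Myh10 bins at 53510450 and 53512400, called sense in both lists, also had opposite-strand replicate 2 peaks named Ndel1. With 24.5 and 33 tags, those peaks are left out of the bin counts.

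Other genes of the actin and myosin machinery, from lists also chosen with earlier results of these data known, were counted in the same way. Of 40 such genes, 22 had a peak and 9 had a shared peak: Actn1, Tln1, Vcl, Vasp, Rock2, Ppp1r12a, Cfl1, Pfn1 and Lima1. Over the protein-coding genes of the name table, 7.61% had a peak in either list and 2.62% a shared peak; these include genes that the cells may not express. Of all replicate 1 peaks, 61.0% were shared. In Actn1, which encodes alpha-actinin-1, 6 of 14 replicate 1 peaks were shared, and in Actn4 0 of 2. Ppp1r12a, the targeting subunit of myosin phosphatase, shared all 4 of its replicate 1 peaks, with 34 tags in replicate 1 and 41 tags in replicate 2 at the peak highest in replicate 1. Rock2, a kinase that promotes myosin light chain phosphorylation, shared 3 of 4. Of 25 sarcomeric filament genes, such as those of troponins and titin, 3 had a peak, Tnnt2, Tnnt3 and Tnnc1, and the first 2 of these had a shared peak.

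The genes whose counts of sense and antisense peaks in both lists were most like those of Flna were Lrp1, Hspg2, Chd3, Sptbn1 and Nbas. Likeness was the summed absolute difference over the 4 counts, which was 4 for Lrp1 and between 9 and 14 for the others. Lrp1 had 3 sense and 6 antisense peaks in replicate 1, and 19 sense and 21 antisense peaks in replicate 2.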

How the data were processed

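Per the labels' protocols, cells were irradiated, lysed and treated with DNase, and stranded total RNA libraries were read as pairs of 150 nt. Per the submitters' processing notes, HISAT2 and the build mRatBN7.2 were used; which program called peaks, with which filters, and whether the inputs entered the calls is not given in the sources used here. Each deposited list was assigned to its IP sample by name. The deposited tags are a signal per 50-nt bin (a mean over bins in longer peaks), and the deposited p-value had 1 value per tag number and strand in the 51-nt member peaks, so it was used only to rank peaks. The deposited length of a peak is in nt.

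Gene names were taken as deposited, after removal of a prefix. Peaks overlapped when they shared at least 1 bin. Boundary peaks are sense peaks with exon and intron sequence. All members were named, and single peaks were the strongest in each list, the strongest shared peak of each member and all shared peaks of members with few. Members and lists were chosen with earlier results of these data known. No hypothesis test was run: each list is 1 sample and peaks of a gene are not independent. All 9 members, and all entries of the other lists, matched a symbol in the RefSeq name table of assembly GRCr8, whose coordinates were not printed. Genome sequence was not used here. The overlap procedure was tested on simulated data. Computation was in Python 3.11.15 with pandas 2.3.3, numpy 2.4.6 and scipy 1.17.1, and plots were drawn with matplotlib 3.10.9.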

Additional observations from a re-analysis of the deposited data

How the results depend on the processing

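Across 12 quantities and 49 alternative settings, 48 values stayed within the interval of the reported share, within 1.5 times the reported count or, for the tag ratio, within 1 SD over pairs. These limits are loose where peaks are few, such as 18.5 to 61.4% for the paired share of 16 sense peaks in replicate 1. Staying within them is therefore weak evidence of stability. The exception was the boundary share of replicate 2 sense member peaks. It was 82.9% (29 of 35) with the part of each list that had the smaller p-values, in place of 71.0%. The share over all sense peaks in that part is not given here, so whether the whole list moved likewise is not known. The cause was not tested. With that part of the lists, 4 members held a shared peak in place of 6. Overlap on either strand gave 67.6% of replicate 1 member peaks shared, and widening by 1 bin, chosen after seeing the data, gave 55.9% as before. The smallest gap of an unshared replicate 1 member peak was 100 nt, so this widening could not change the value. Counting opposite-strand peaks of any gene was also chosen after seeing the data. Without Flna, 15 of 28 replicate 1 member peaks were shared (53.6%) and 21.1% of those in replicate 2. Leaving out either replicate left 7 members with a peak, which had to follow because all 7 had peaks in each list. Sharing could not be computed without both. No paired analysis was possible because the inputs were not analysed here and the results come from no test. Unknown depth limits every comparison of list length or tags between the replicates.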
